A study of Mus musculus with 10 samples.

Results

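Sarcolipin (Sln) and 9 other genes of calcium handling by the sarcoplasmic reticulum were followed in young and aged skeletal muscle. The genes were Pln, Atp2a1, Atp2a2, Casq1, Casq2, Ryr1, Srl, Hrc and Jph1, which make 10 of the 37947 gene symbols in the RNA sequencing data and 25 of its 92251 transcripts. Sln was selected on its age difference in these same libraries and the other members for their role beside it, so the values of Sln are given as a description. For each gene the transcript of highest mean across the 10 libraries was used, and its other transcripts served as a check. A mean FPKM (fragments scaled to transcript length and library depth) of at least 1 was required for testing, which 9 of the 10 members passed and Pln did not.

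The libraries came from the gastrocnemius, a mainly fast calf muscle, of male C57BL/6 mice with no other treatment or altered gene. Young mice were 6 months old (n = 5) and aged mice 24 months old (n = 5), with 1 library of poly-A RNA from whole muscle per mouse. The study asked how gene expression changes in aging muscle. In RNA from whole muscle, fewer cells of a type and less RNA per cell cannot be told apart.

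In a muscle fiber, depolarization opens the ryanodine receptor and calcium leaves the sarcoplasmic reticulum to start contraction. The SERCA pumps then return calcium to the store, where calsequestrin binds it. Sarcolipin and phospholamban are small membrane proteins that inhibit the SERCA pumps, and sarcolipin is also known for uncoupling ATP hydrolysis from calcium transport, which releases heat. In adult rodents sarcolipin is known mainly from the atria and from slow or oxidative muscles, and it is scarce in fast muscle.

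The coding sequences of both inhibitors are shown because Sln is the member chosen for its age difference and Pln is the other pump inhibitor of the list. Each lies in 1 exon on the plus strand in GENCODE M21 on GRCm38 (mm10), Sln at chr9:53853473-53853568 with 31 codons before the stop and Pln at chr10:53343864-53344022 with 52. Capitals mark the start and the stop codon.
Sln: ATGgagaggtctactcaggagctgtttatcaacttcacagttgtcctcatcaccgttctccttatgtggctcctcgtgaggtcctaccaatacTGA
Pln: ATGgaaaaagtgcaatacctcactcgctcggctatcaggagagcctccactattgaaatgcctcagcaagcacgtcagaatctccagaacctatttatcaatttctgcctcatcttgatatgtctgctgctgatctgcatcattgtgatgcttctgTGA

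On the same build, the gene Sln lies on chromosome 9 from 53850164 to 53854560 and Pln on chromosome 10 from 53337667 to 53345987. The pump genes lie on chromosome 7 from 126445858 to 126463108 (Atp2a1) and chromosome 5 from 122453513 to 122502225 (Atp2a2). Casq1 lies on chromosome 1 from 172209894 to 172219868, Casq2 on chromosome 3 from 102086415 to 102146514, Ryr1 on chromosome 7 from 29003344 to 29125179, Srl on chromosome 16 from 4480216 to 4541816, Hrc on chromosome 7 from 45335290 to 45338974 and Jph1 on chromosome 1 from 16964560 to 17097889.

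The values are log2 FPKM, in which any FPKM below 1 is listed as 0. Whole reads could be recovered from the values, and the depths ranged from 19886353 to 34554357 reads. For a transcript of 1 kb the lowest value shown, an FPKM of 1, equals 19.9 to 34.6 reads, so lower expression was not detectable. The young and the aged library numbered 3 stood apart from the others. In aged library 3, the member transcripts of Srl, Casq1 and Casq2 that end far from the 3′ end of their gene were low, and in young library 3 they lay below the median of the other young libraries by less, and results whose direction or size rests on these libraries are given with and without them. The markers of the tissue were present, with fast fiber genes at a summed FPKM of 113443 to 133167 in young and 101716 to 123954 in aged muscle, while of the satellite cell markers Cdh15 was above 0 and Pax7, Myf5, Calcr and Megf10 were at 0 in every library.

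Sln was low in young muscle and 10.0-fold higher, as a ratio of geometric means, in aged muscle. The transcript Sln-201 had a log2 FPKM of 0.69, 0.06, 1.65, 1.45 and 1.50 in young libraries 1 to 5 and of 5.17, 4.40, 4.15, 3.83 and 4.43 in aged libraries 1 to 5. The lowest aged library was far above the highest young one, and no library overlapped between the ages. The mean was 1.07 ± 0.68 in young and 4.40 ± 0.50 in aged muscle (SD, n = 5 each), and the means differed by 3.33 on the log2 scale (SE 0.35, 95% interval 2.55 to 4.10).

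**Figure D1:**
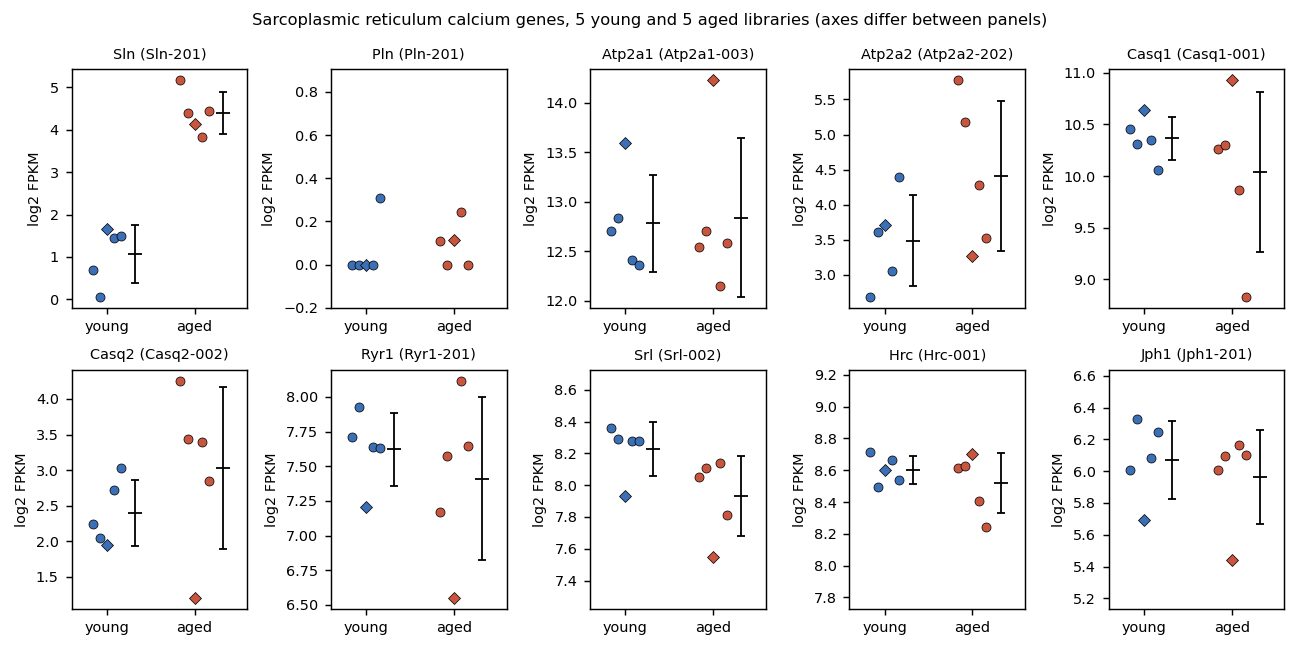
Log2 FPKM (vertical axes, which differ between panels) of the 10 members in 5 young libraries (blue) and 5 aged libraries (red), with diamonds for the libraries numbered 3 and black bars for mean ± SD (not drawn for Pln, listed at 0 in 6 libraries). The Sln values of 0.06 to 1.65 in young and 3.83 to 5.17 in aged muscle do not overlap, whereas the other 9 members overlap between the ages.

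The difference in Sln was also visible as reads. Young libraries 1 to 5 held 17, 13, 56, 32 and 29 reads of Sln, and aged libraries 1 to 5 held 394, 246, 290, 194 and 225. The upper 95% limit of the young libraries (exact Poisson, counting error only) reached at most 2.10 RPM (reads scaled to library depth) in young library 3, and the lower limit of the aged libraries was at least 6.32 RPM in aged library 4. These limits leave out the spread between mice, and the young values rest on few reads.

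The limma fit over 38059 transcripts gave Sln-201 an adjusted p of 0.0359. It was 1 of 3 transcripts with an adjusted p under 0.05, which is 0.00788% of those tested, and Sln was selected from this same contrast, so no support is drawn from it. With the same-numbered young and aged libraries as a replicate block the difference stayed at 3.33, with an adjusted p of 0.297. Leaving out 1 library at a time gave differences of 3.07 to 3.47 and adjusted p values of 0.0184 to 0.222, and 7 of the 10 omissions took the adjusted p over 0.05. These were young libraries 1, 2, 4 and 5, with 0.198, 0.0933, 0.222 and 0.189, and aged libraries 1, 2 and 4, with 0.0758, 0.160 and 0.114. Without both libraries numbered 3 the difference was 3.53 and the adjusted p 0.0337.

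Phospholamban (Pln), the inhibitor best known from heart and slow muscle, stayed at the lower limit of detection at both ages. Pln-201 was listed at 0 in young libraries 1 to 4 and in aged libraries 2 and 5. The remaining libraries had a log2 FPKM of 0.31 in young 5, 0.11 in aged 1, 0.12 in aged 3 and 0.25 in aged 4, from 54 to 81 reads each. No comparison was possible because most values lay below an FPKM of 1. The second transcript, Pln-202, was listed above 0 in the same 4 libraries.

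Of the SERCA pumps, Atp2a1 (SERCA1), the pump of fast fibers, was the most abundant member and showed no age difference beyond its spread. Its transcript of highest mean, Atp2a1-003, had a log2 FPKM of 12.70, 12.84, 13.59, 12.41 and 12.36 in young libraries 1 to 5 and of 12.54, 12.70, 14.23, 12.15 and 12.58 in aged libraries 1 to 5. The highest library of each age was the one numbered 3. The difference was 0.06 (SE 0.39, 95% interval -0.80 to 0.92), and it was -0.28 without aged library 3 and -0.08 without both libraries numbered 3. Atp2a1-003 spans 681 bases at the 3′ end of the gene. Atp2a1-001 was taken as the full-length transcript, although its length could not be recovered from its values. It varied much less, between 12.54 and 12.87 in young and between 12.42 and 12.67 in aged muscle, with a difference of -0.11 (SE 0.13, 95% interval -0.41 to 0.18).

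Atp2a2 (SERCA2), the pump of slow fibers and of the heart, had a higher mean in aged muscle that did not exceed its spread. Atp2a2-202 had a log2 FPKM of 2.68, 3.60, 3.71, 3.05 and 4.39 in young libraries 1 to 5 and of 5.77, 5.18, 3.26, 4.28 and 3.53 in aged libraries 1 to 5. Aged libraries 1 and 2 lay above every young library, while aged libraries 3, 4 and 5 lay within the young range. The difference was 0.92 (SE 0.51, 95% interval -0.21 to 2.04, limma adjusted p = 1.00), so an increase of 4-fold as well as no change lies within the interval. It was 0.57 without aged library 1, 1.20 without aged library 3 and 1.26 without both libraries numbered 3. The other transcripts, Atp2a2-203 and Atp2a2-201, differed by 0.62 (SE 0.73) and 0.74 (SE 0.62). In both, aged library 3 lay below every young library, at 1.40 and 1.83.

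Calsequestrin-1 (Casq1), the calcium-binding protein of fast fibers, had a slightly lower mean in aged muscle that did not exceed its spread. Casq1-001 had a log2 FPKM of 10.46, 10.31, 10.64, 10.35 and 10.06 in young libraries 1 to 5 and of 10.26, 10.30, 10.93, 9.86 and 8.83 in aged libraries 1 to 5. Aged library 5 was the lowest and aged library 3 the highest of all 10. The difference was -0.33 (SE 0.34, 95% interval -1.07 to 0.42), so a decrease of 2-fold lies within the interval. It was -0.02 without aged library 5, -0.55 without aged library 3 and -0.48 without both libraries numbered 3. The short Casq1-003 differed by -0.57 (SE 0.27, 95% interval -1.17 to 0.03).

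Calsequestrin-2 (Casq2), the form of cardiac and slow muscle, gave different results from its different transcripts. The transcript of highest mean, Casq2-002, had a log2 FPKM of 2.25, 2.05, 1.95, 2.72 and 3.03 in young libraries 1 to 5 and of 4.25, 3.44, 1.20, 3.39 and 2.84 in aged libraries 1 to 5. In aged muscle 4 of the values lay above the young mean, and aged library 3 was the lowest of all 10. The difference was 0.63 (SE 0.49, 95% interval -0.47 to 1.72), with 0.32 without aged library 1, 1.08 without aged library 3 and 0.97 without both libraries numbered 3.

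Casq2-002 ends 1166 bases before the 3′ end of the gene, whereas Casq2-001, the longest transcript with 2556 bases, reaches it. Casq2-001 had a log2 FPKM of 1.66, 1.53, 1.74, 2.12 and 2.26 in young libraries 1 to 5 and of 3.65, 2.82, 2.97, 2.75 and 2.15 in aged libraries 1 to 5. Only aged library 5 fell within the young range. The difference was 1.01 (SE 0.27, 95% interval 0.41 to 1.61) with an unadjusted p of 0.00368 from limma and an adjusted p of 0.729, so it did not pass over all transcripts. This transcript was taken up after the data were seen, and 3.89% of all transcripts tested were higher in aged muscle at an unadjusted p under 0.05, against 0.738% lower. This split was 2.66% against 1.35% with median-of-ratios scaling, 2.31% against 1.77% with quantile normalization and 10.7% against 0.998% without aged library 3.

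The libraries numbered 3 showed a similar order among the transcripts of Srl and Casq1, and a 3′ transcript of Atp2a1 was high in both. In aged library 3 the short transcripts Srl-004 and Srl-003, which end 7363 and 13387 bases before the 3′ end of Srl, lay 5.70 and 5.60 below the median of the other aged libraries on the log2 scale. Casq2-004, Casq2-002 and Casq2-003 lay 2.80, 2.21 and 1.62 below it. In contrast, Casq1-002 and Atp2a1-003, which end within 2 bases of the 3′ end, lay 1.75 and 1.67 above. Young library 3 deviated in the same direction by less for all of these transcripts, with -2.21 for Srl-004 and 1.04 for Atp2a1-003. Ryr1 and Jph1 departed from this order in aged library 3. Ryr1-201, with 15352 bases and its end at the 3′ end of the gene, lay 1.06 below, and Jph1-201, which ends 30378 bases before the annotated end of the gene, lay only 0.65 below. The part of RNA quality in these values was not tested.

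**Figure D2:**
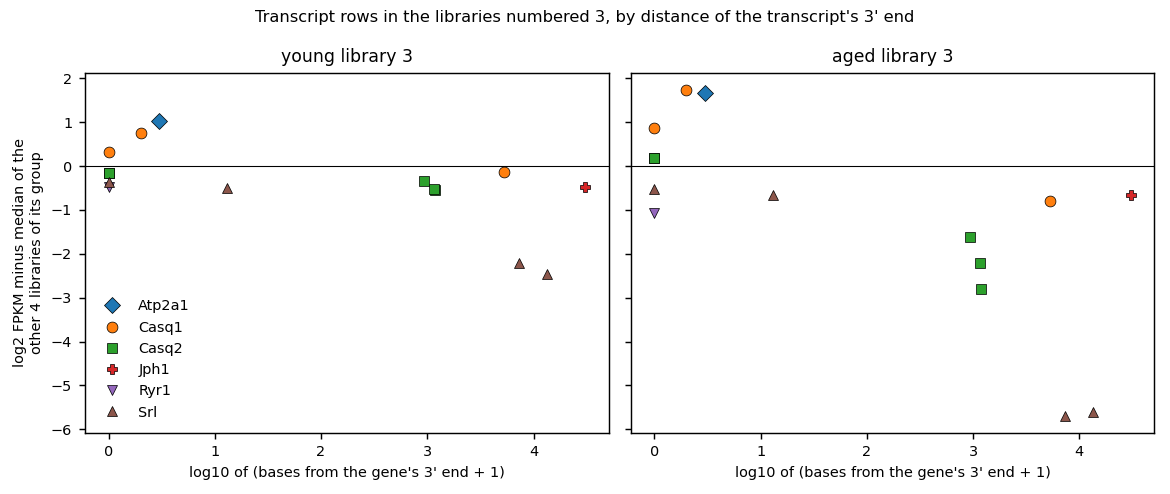
Log2 FPKM of the 15 member transcripts with a known position in the libraries numbered 3, minus the median of the other 4 libraries of the same age (vertical axis), against the log10 of the bases between the end of the transcript and the 3′ end of its gene plus 1 (horizontal axis). For Casq1, Casq2, Srl and Atp2a1 in aged library 3, transcripts that end near the gene's 3′ end lie between -0.67 and 1.75 and those that end far from it between -5.70 and -0.80, while Ryr1-201 (at the 3′ end, -1.06) and Jph1-201 (far from it, -0.65) depart from this order.

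The remaining members of the release machinery and its store were close to their young level. Ryr1, the calcium release channel of skeletal muscle, ranged from 7.21 to 7.93 in young and from 6.55 to 8.11 in aged muscle, a difference of -0.21 (SE 0.28, 95% interval -0.83 to 0.40). Hrc, a calcium-binding protein of the store that interacts with triadin, ranged from 8.50 to 8.72 and from 8.24 to 8.70, a difference of -0.08 (SE 0.14, 95% interval -0.40 to 0.23). Jph1, which ties the sarcoplasmic reticulum to the transverse tubules, ranged from 5.69 to 6.33 and from 5.44 to 6.17, a difference of -0.11 (SE 0.19, 95% interval -0.53 to 0.31). For Hrc and Jph1 the intervals leave out a change of 2-fold, and for Ryr1 likewise. The differences of Ryr1 and Jph1 were 0.0035 and 0.02 without aged library 3, the lowest aged library for both.

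Srl, which encodes sarcalumenin, a further calcium-binding protein of the store, had a lower mean in aged muscle. Srl-002 had a log2 FPKM of 8.36, 8.29, 7.93, 8.28 and 8.28 in young libraries 1 to 5 and of 8.05, 8.11, 7.55, 8.14 and 7.81 in aged libraries 1 to 5. Every aged value was below the 4 highest young values, and young library 3 lay within the aged range. Each aged library was below the young library of the same number, although the mice are different. The difference was -0.30 (SE 0.17, 95% interval -0.66 to 0.07, limma adjusted p = 1.00). It was -0.20 without aged library 3 and -0.27 without both libraries numbered 3. With the same-numbered libraries as a replicate block the SE was 0.13 and the limma adjusted p 0.620.

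**Figure D3:**
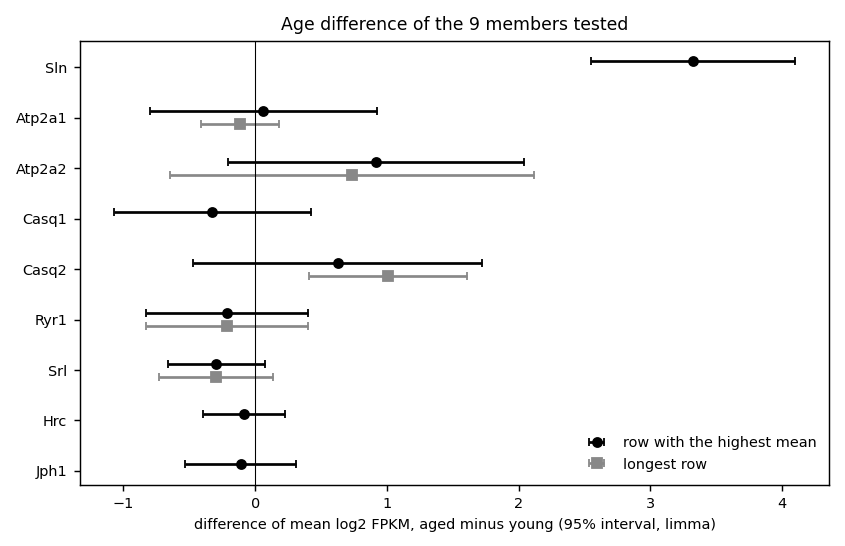
Difference of mean log2 FPKM, aged minus young (horizontal axis), with its 95% interval from limma for the 9 members tested, at the transcript with the highest mean (black) and, where another one is longest, at the longest transcript (gray). Intervals of the other members include 0, apart from 0.41 to 1.61 at the longest Casq2 transcript, and the Sln interval of 2.55 to 4.10 is that of the gene chosen for its difference.

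Of the 8 members other than Sln that were tested, 3 had a higher and 5 a lower mean in aged muscle, and none passed an adjusted or an unadjusted p of 0.05. Their adjusted p values were all 1.00, and 0.620 to 0.922 with the replicate block. Their median difference was -0.10, beside 0.03 over all transcripts tested. Sln was also the 1 member of 9 whose groups did not overlap, a pattern that 1.54% of all transcripts tested showed. By a criterion of more than 2-fold and an unadjusted p under 0.05 in a 2-sample equal-variance test, Sln was again the 1 member that passed, beside 0.662% of all transcripts.

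The order of the members by level, a measure per transcript length, was nearly the same at both ages apart from Sln. In young muscle the mean log2 FPKM was 12.78 for Atp2a1, 10.36 for Casq1, 8.60 for Hrc, 8.23 for Srl, 7.62 for Ryr1, 6.07 for Jph1, 3.49 for Atp2a2, 2.40 for Casq2, 1.07 for Sln and below 1 FPKM for Pln in 4 of 5 libraries. Neighbors in this order had separate ranges, except Atp2a2 with Casq2 and Sln with Pln. In aged muscle Sln (4.40) stood beside Atp2a2 (4.40), and its range overlapped with those of Atp2a2 and Casq2 (3.03). Srl with Ryr1 and Jph1 with Atp2a2 also overlapped there. The level of Sln depends on the length behind its FPKM: the deposited values came from a length of 515 bases, and Sln-201 has 1318 bases in GENCODE M21. The same reads on the longer transcript would place each Sln level 1.36 lower, which for some young libraries is below the limit of detection.

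Ratios within a library do not depend on the scaling between libraries, and they were used to follow the balance of each inhibitor, pump and buffer. The ratio of Sln to Atp2a2 on the log2 scale was -2.42 ± 0.79 in young and -0.01 ± 0.83 in aged muscle (SD, n = 5 each). Against Atp2a1 it was -11.71 ± 0.80 and -8.45 ± 0.99, so the pump of fast fibers remained in large excess at the level of RNA. Both ratios carry the difference by which Sln was chosen and were not tested.

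For the other 3 ratios, two-sided exact permutation tests were run, which with 5 libraries against 5 cannot give a p below 0.00794. The log2 ratio of Atp2a2 to Atp2a1 was -9.29 ± 0.81 in young and -8.44 ± 1.64 in aged muscle, a difference of 0.85 (exact p = 0.317, 0.317 after Benjamini-Hochberg adjustment over the 3 ratios). This difference was 0.44 without aged library 1 (adjusted exact p = 0.595), 1.49 without aged library 3 (adjusted exact p = 0.0595) and 1.34 without both libraries numbered 3 (adjusted exact p = 0.0857). The ratio of Casq2 to Casq1 was -7.96 ± 0.64 and -7.01 ± 1.56, a difference of 0.95 (exact p = 0.230, adjusted 0.317). With the longest transcripts it was -8.50 ± 0.47 and -7.17 ± 0.57, a difference of 1.33 (exact p = 0.0159, adjusted 0.0476), and with the transcripts of highest mean but without aged library 3 it was 1.63 (adjusted exact p = 0.0476). Without both libraries numbered 3 it was 1.45 (adjusted exact p = 0.0857), where 4 libraries against 4 cannot give an unadjusted exact p below 0.0286. The ratio of Pln to Atp2a2 is not compared, because Pln was listed at 0 in 6 libraries and the ratio then follows Atp2a2 alone. As a group, the slow-type forms Atp2a2 and Casq2 had higher means relative to their fast-type counterparts in aged muscle, and the test was passed only by Casq2 over Casq1 at the longest transcripts or without aged library 3.

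The genes of slow fibers varied widely between mice of the same age. The summed FPKM of 8 slow fiber genes (Myh7, Myl2, Myl3, Tnnt1, Tnni1, Tnnc1, Tpm3 and Myoz2) was 38.6, 113, 363, 44.2 and 257 in young libraries 1 to 5 and 1054, 563, 404, 167 and 80.6 in aged libraries 1 to 5. Aged libraries 1 to 3 were above every young library, and aged libraries 4 and 5 lay within the young range. All 8 genes had a higher mean in aged muscle, with a median difference of 1.48 (0.80 without young library 4, 0.85 without aged library 1 and 2.12 without aged library 5), and none had an adjusted p under 0.05. Myl2, the slow regulatory light chain, differed by 1.55 (SE 0.91), and Myl3, the slow essential light chain, by 1.60 (SE 0.71).

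Atp2a2-202 followed these slow fiber genes from library to library. The other Atp2a2 transcripts, Atp2a2-203 and Atp2a2-201, were not set against them. In aged library 3 these were at 1.40 and 1.83, lower than Atp2a2-202 at 3.26. Over the 10 libraries, the log2 FPKM of Atp2a2-202 and the log2 of the slow fiber sum had a Pearson r of 0.81 (permutation p = 0.00391, adjusted 0.0117 over 3 relations) and a Spearman rho of 0.78 (permutation p = 0.0104, adjusted 0.0222). Without young library 1 and aged library 1, the farthest from the median sum, r was 0.60, and over the deviations from the group means it was 0.75. The age groups of 5 are too small for a correlation of their own.

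For Casq2-001 r was 0.72 (permutation p = 0.0205, adjusted 0.0308) and rho 0.76 (permutation p = 0.0148, adjusted 0.0222), with r = 0.45 without the same 2 libraries and 0.61 over the deviations. For Casq2-002 r was 0.32 (permutation p = 0.368, adjusted 0.368) and rho 0.32 (permutation p = 0.368, adjusted 0.368), and r was -0.13 without the 2 libraries. Chosen after the data were seen, the omission of aged library 3 gave an r of 0.60 for Casq2-002, 0.93 for Atp2a2-202 and 0.69 for Casq2-001, and that of both libraries numbered 3 gave 0.83, 0.99 and 0.83. Sln deviated from its group means with an r of 0.47 to the slow fiber deviations, given as a description. The part of slow fiber content in the Sln difference was not tested.

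**Figure D4:**
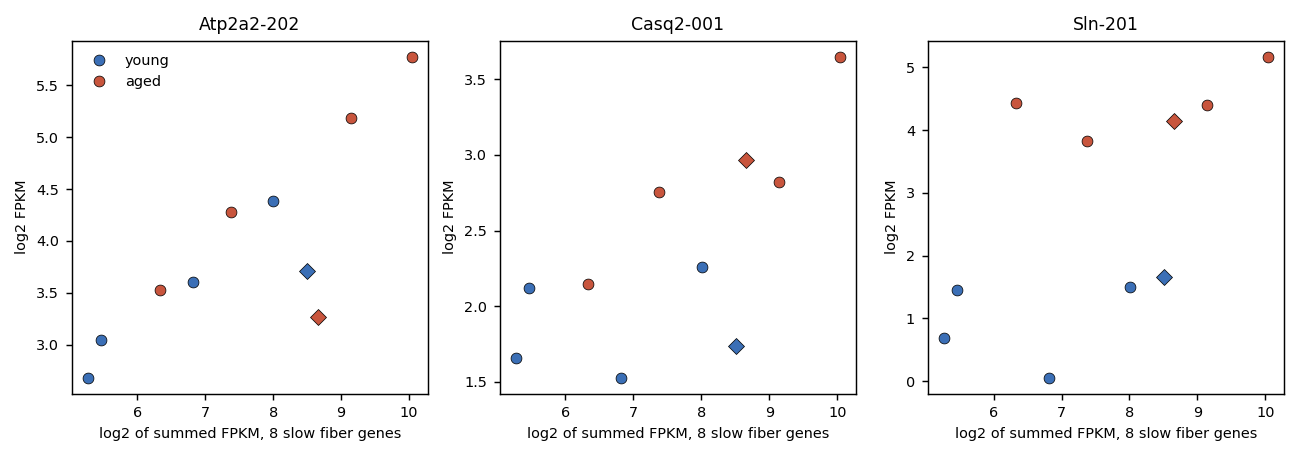
Log2 FPKM of Atp2a2-202, Casq2-001 and Sln-201 (vertical axes) against the log2 of the summed FPKM of 8 slow fiber genes (horizontal axes) in young (blue) and aged (red) libraries, with diamonds for the libraries numbered 3. Atp2a2-202 climbs with the slow fiber sum over all 10 libraries (r = 0.81). Over the deviations from the group means, r is 0.75 for Atp2a2-202 and 0.47 for Sln. Every aged Sln value (3.83 to 5.17) lies above every young one (0.06 to 1.65).

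The wider calcium pathway was described with lists of 20 genes of release and the triad and 22 genes of removal and regulation, of which 39 of 42 were tested. None had an adjusted p under 0.05 in limma, and 1 (Cacng1, higher in aged muscle) had an unadjusted p under 0.05, beside 3.89% of all transcripts tested that were higher at that p. Of the 18 release and triad genes tested, 6 had a higher and 12 a lower mean in aged muscle, with a median difference of -0.07. Ryr2 and Ryr3, the ryanodine receptors of heart and of other tissues, were listed at 0 in all 10 libraries.

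Cacng1, the gamma subunit of the voltage sensor, was 7.66 ± 0.36 in young and 8.22 ± 0.25 in aged muscle (log2 FPKM, SD, n = 5 each) and differed by 0.56 (SE 0.21, limma adjusted p = 1.00). Trdn, which encodes triadin, the anchor of calsequestrin at the release channel, differed by 0.38 (SE 0.28) with a value of 9.40 in aged library 3 and no more than 8.25 in any other. Without aged library 3 the Trdn difference was 0.12.

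Of the 21 removal and regulation genes tested, 15 had a higher and 6 a lower mean in aged muscle, with a median difference of 0.15. Slc8a1, a sodium-calcium exchanger of the surface membrane, differed by 0.79 (SE 0.44) at a level near the limit of detection. Camk2a, a calcium-dependent kinase, differed by -0.72 (SE 0.80) with aged library 3 at 2.88, by 0.06 without that library and by -0.32 without both libraries numbered 3. Sri, which encodes sorcin, a calcium sensor of the release channel, differed by 0.38 (SE 0.18). None of these differences passed over all transcripts.

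**Figure D5:**
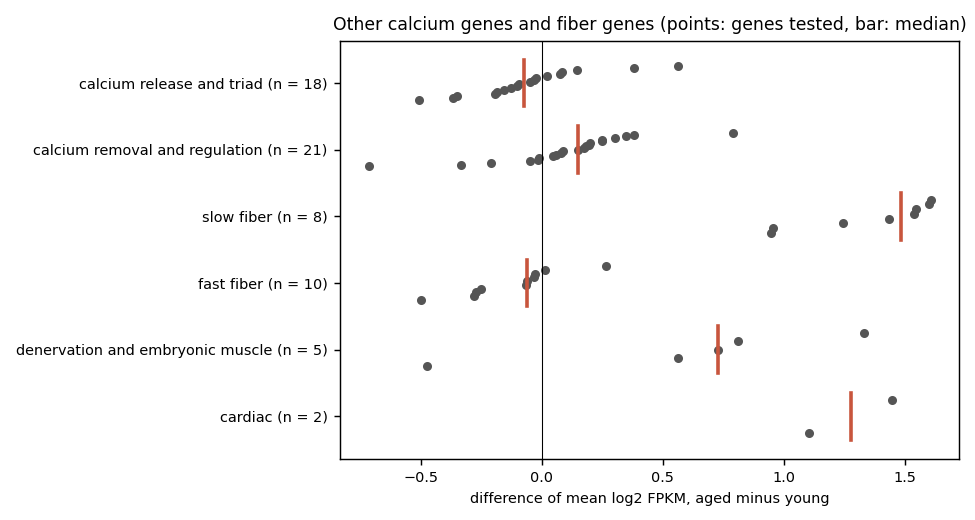
Difference of mean log2 FPKM, aged minus young (horizontal axis), of each gene tested in 6 lists, with a red bar at the median of each list. The calcium lists center on -0.07 and 0.15, the fast fiber list on -0.06 and the slow fiber list on 1.48, and no gene of these lists had an adjusted p under 0.05.

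Markers of other sources of Sln and of the slow-type genes were listed beside these values. The fast fiber genes had a median difference of -0.06 over 10 genes, with -0.25 (SE 0.19) for Tnnt3, the fast troponin T, and 0.01 (SE 0.24) for Tnnc2, the fast troponin C. These were -0.09 and -0.15 without aged library 3. Of 8 cardiac genes, Nppa, Nppb, Myl7, Tnni3 and Gata4, which define atrial or cardiac muscle, were at 0 in all 10 libraries. The summed FPKM of the cardiac list was 4.89 to 15.2 in young and 13.1 to 39.9 in aged muscle, and 3 of the 8 genes gave it. Myl4, an atrial and embryonic light chain, differed by 1.10 (SE 0.45), and Tnnt2, the cardiac troponin T also made by embryonic muscle, by 1.45 (SE 0.29, limma adjusted p = 0.369). Myh6, the alpha cardiac myosin, was not tested and was listed at 0 in 7 libraries, with 0.09 in young library 3, 1.81 in aged library 1 and 0.95 in aged library 2, and it was named after its values were seen. Tnnt2 reached at most 1.02 in young and at least 1.30 in aged libraries.

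Of the 10 genes of denervation and embryonic muscle, 5 were tested, 4 of them with a higher and 1 with a lower mean in aged muscle, and their median difference was 0.73, or 0.17 when a mean FPKM of at least 5 was required. The median of 0.73 was the value of Myh3, an embryonic myosin at 0.45 or less in young libraries. Myh3 reached the filter through its aged libraries, so its direction was partly fixed by it. Chrnd, Chrng and Runx1 were listed at 0 in every library. Myh8, the neonatal myosin, differed by -0.48 (SE 0.58), or by 0.07 without aged library 3, and Gadd45a, a growth arrest gene induced by denervation, by 0.81 (SE 0.33). Chrna1, the alpha subunit of the acetylcholine receptor, was named after its values were seen: it was 0.39 to 1.11 in young and 1.66 to 2.43 in aged muscle, a difference of 1.33 (SE 0.21, limma adjusted p = 0.222). Neither Chrna1 nor Tnnt2 passed the adjusted threshold although their groups did not overlap, as was the case for 1.54% of all transcripts tested.

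The summed FPKM of 5 macrophage markers (Cd68, Csf1r, Emr1, Cd163 and Mrc1) was 1.76 to 7.19 in young and 4.09 to 18.5 in aged muscle. Of these, 3 were tested, all with a higher mean in aged muscle, and none of the 5 was at 0 in every library. The Schwann cell sum was 20.4 to 137 in young and 34.8 to 233 in aged muscle, with 4 of 5 markers tested and all 4 higher. Sums of the fibroblast (145 to 248 and 102 to 256), endothelial (35.1 to 41.6 and 32.5 to 51.7), adipocyte (173 to 369 and 240 to 364), smooth muscle (40.5 to 134 and 47.6 to 105) and satellite cell markers (3.83 to 5.75 and 4.07 to 5.15, all from Cdh15) overlapped between young and aged muscle. The fibroblast sum came mostly from Dcn, and the collagens Col1a1 and Col3a1 of that list differed by -1.12 (SE 0.56) and -1.03 (SE 0.37). The other 3 genes of the list, Pdgfra, Dcn and Lum, differed by 0.06 (SE 0.25), 0.10 (SE 0.29) and 0.31 (SE 0.37). None of the genes in these lists had an adjusted p under 0.05, and their part in the Sln difference was not tested.

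The genes whose pattern was most like Sln over the 10 libraries, among 9813 genes, were Amy1 (r = 0.97), Chrnb1 (r = 0.95), Rpl22 (r = 0.93), Otud1 (r = 0.91) and Sh2d4a (r = 0.91). Each had a higher mean in aged muscle, by 1.33 for Amy1, an amylase, and by 0.87 for Chrnb1, the beta subunit of the acetylcholine receptor. Over the deviations from the group means, which leave the ages aside, the most similar were Hspb11 (r = 0.93), Gm13339 (r = 0.92), Mtg1 (r = 0.88), Adamtsl5 (r = 0.87) and Prdx2 (r = 0.84). The first and the second list shared no gene, and these are descriptions over 10 libraries. Among the members, r with Sln over the deviations was 0.46 for Atp2a2, 0.42 for Casq2 and -0.43 for Ryr1, and between -0.25 and 0.20 for the other 5.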

How the data were processed

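Poly-A RNA of 10 gastrocnemius samples, 5 young and 5 aged, was sequenced in paired-end reads. The authors mapped the reads to mm10 with TopHat2, computed FPKM, and deposited log2 FPKM per transcript, with an FPKM under 1 listed as 0 and replicates not pooled. The counting program is not given in the sources used here. The members and lists were chosen with earlier results of these data known. Samples were grouped by the age in their labels, where nothing beyond separate library names describes the mice.

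limma 3.58.1 (R 4.3.3, lmFit and eBayes) was fitted to the log2 values as deposited of the 38059 transcripts whose mean FPKM reached 1 (values at 0 counted as 0), with Benjamini-Hochberg adjustment over all of them and a threshold of 0.05. Ratios were compared by exact permutation, and correlations with 100000 permutations. Depths were recovered from the steps between low values, of which 85.5% to 89.3% were whole reads within 0.1. They served to describe precision, and no test was made on them. Positions, lengths and coding sequences are from GENCODE M21 (GRCm38).

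The ages share the library numbers 1 to 5. Same-numbered libraries deviated from their group means together, with correlations of 0.131, 0.332, 0.695, 0.391 and 0.208 over the transcripts tested, against a mean of -0.04 for other combinations. The fit with the number as a replicate block is therefore given where it changes a call, although the mice are different.

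All members were named. Of each calcium list, the 3 largest age differences among genes tested and any gene past the threshold were named, of each fiber, denervation and cardiac list the 2 with the highest mean, and for likeness to Sln the 5 highest correlations of each kind. Some items that this rule would name are not reported here. Alternatives were other filters, pseudocounts, scalings and transcripts, a criterion of more than 2-fold with an unadjusted p under 0.05, an intensity trend and leaving out libraries. Python 3.11.15, numpy 2.4.6, pandas 2.3.3 and scipy 1.17.1 were used.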

Additional observations from a re-analysis of the deposited data

Results flagged for a closer look

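Values far from the other 4 libraries of their age by Dixon's test (ratio above 0.71) were found 12 times among the 50 groups of 5 that the member transcripts form, in 9 transcripts, where chance marks about 1 group in 20. Of these, 10 were in a library numbered 3. In aged library 3, Atp2a1-003 was the highest at 14.23, while Atp2a1-002 (8.15), Srl-004 (1.71), Srl-003 (listed at 0) and Jph1-201 (5.44) were the lowest. In young library 3, Atp2a1-002 (11.68), Srl-001 (7.54), Srl-002 (7.93), Srl-003 (3.56) and Srl-004 (5.51) were the lowest. Transcripts of 1 gene share reads, so these are not separate measurements. In young library 5, Pln-201 (0.31) and Pln-202 (0.23) were above 0 while the other 4 young libraries were listed at 0, so the gap partly reflects values below 1 FPKM that are not shown.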

How the results depend on the processing

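The Sln difference kept its direction in all 20 alternatives, and the number of members with an adjusted p under 0.05 fell from 1 to 0 with no filter on low values, median-of-ratios scaling, quantile normalization and the replicate block, and ranged from 0 to 1 when 1 library was left out. The paired fit with the replicate block changed no other call, and the exact test on 5 paired ratios cannot give a p below 0.0625. The log2 ratio of Casq2 to Casq1 passed with the longest transcript (1.33, chosen after seeing the data) and ranged from 0.70 to 1.63 when 1 library was left out. The number of list genes past the threshold went from 0 to 2 (Chrna1 and Tnnt2) under the criterion of more than 2-fold and an unadjusted p under 0.05. The Atp2a1 difference turned to -0.081 without both libraries numbered 3. It was -0.11 with Atp2a1-001, the second highest transcript and the one taken as longest. When 1 library was left out, it ranged from -0.28 to 0.27, Ryr1 from -0.39 to 0.0035 and Jph1 from -0.20 to 0.022. The upper values of Ryr1 and Jph1 came without aged library 3, and the cause was not tested. Without aged library 3 the median of all transcripts was 0.18, and without both libraries numbered 3 it was 0.13, against 0.03 with all libraries. An FPKM under 1 cannot be compared, which limits Pln, Slc8a1 and the cardiac and denervation lists. With 5 libraries per age, a change as small as those of Atp2a2 and Casq2-002 lies within the spread.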
